A study of Homo sapiens
Mus musculus and Homo sapiens with 21 samples.

Results

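The integrin subunit genes were described in human cancer cells and in the mouse tissue that held them. A gene was taken as a member when its symbol in the deposited tables was ITGA or ITGB followed by a number or by 2B, V, L, M, X, E or D, with the mouse spelling in the mouse table. No measured value entered this choice. The rule found 26 of the 34058 genes of the human table and 27 of the 33043 rows of the mouse table. The mouse rows carried 26 symbols, because Itgam was listed on 2 rows, and the second of these was at 0 in every brain library.

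Integrins are receptors made of 1 α and 1 β chain that span the cell membrane. Outside the cell they hold matrix proteins or receptors on other cells, and inside they join the actin skeleton through adaptor proteins such as talin and the kindlins. The pair decides the ligand. α3β1 and α6β4 bind laminins of basement membranes, α1β1, α2β1 and α10β1 bind collagens, α5β1 binds fibronectin, and the pairs of αV with β1, β3, β5, β6 or β8 bind RGD motifs in vitronectin, fibronectin or latent TGFβ. β2 pairs with αL, αM, αX or αD on leukocytes, and β7 pairs with α4 or αE on lymphocytes. In brain, microglia carry αMβ2 and glia carry αVβ8, a pair known for releasing active TGFβ.

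The cells were H2030-BrM3, a human lung adenocarcinoma line selected for growth as brain metastasis, so all cancer-cell values come from 1 cell line. They were sequenced as a monolayer culture (2D, 3 libraries), as subcutaneous tumours injected with growth-factor-reduced Matrigel, a mouse basement membrane extract (SQ, 4 libraries), and as metastases in the forebrain (FBMet, 3 libraries) or hindbrain (HBMet, 3 libraries) after injection into the heart. Tumour-free forebrain (FB, 4 libraries) and hindbrain (HB, 4 libraries) served as host controls. The mice of every group with mouse tissue were athymic nu/nu mice, which lack a thymus and most T cells. Those with tumours were 5 to 6 weeks old at injection, and the tumour was dissected together with the stroma around it. The tumour-free samples also list the cell line among their labels, and nothing states whether they came from injected animals, which libraries share an animal, or whether replicates were separate cultures or animals, so p-values measure the spread between these libraries only.

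Reads of both species were counted in each library, so cancer cells and host could be read apart. Cancer-cell libraries held 27253282 to 49599168 human reads from the monolayer and subcutaneous tumours but 3579907 to 6897852 from the metastases, and tumour-free brain held 3325 to 5753. Mouse reads numbered 17747167 to 23034782 in tumour-free brain, 52358082 to 86139353 in tumour-bearing brain and 2446513 to 3982107 in subcutaneous tumours. All levels below are RPKM (reads per kilobase and per 1000000 reads) rescaled so that the genes of 1 species sum to 1000000 in each library, so they compare genes per length. Of 7 markers of the cancer cell, 5 were above 1 in every metastasis library, while KRT19 was at 0 in every monolayer, subcutaneous and forebrain metastasis library and NKX2-1 at 0 in every forebrain metastasis library. Subcutaneous replicate 3 stood apart on the mouse side: haemoglobin genes made up 19.39% of its mouse level against 1.95% to 4.519% in the other subcutaneous libraries, and its summed keratinocyte markers stood at 2.37 against 2351 to 3538.

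The cancer cells expressed a short list of subunits. Of the 26 human members, 15 reached 1 in at least 3 libraries and were tested. The 11 others (ITGA4, ITGA8, ITGA9, ITGA11, ITGAD, ITGAL, ITGAM, ITGAX, ITGB3, ITGB6 and ITGB8) stayed under 1 in every cancer-cell library, apart from ITGAM at 1.23 in hindbrain metastasis replicate 2. ITGB1, the partner of most α chains, had the highest mean in every cancer-cell group, at 1102 ± 35.0 (SD, n = 3) in the monolayer and 1042 ± 101 (n = 6) in the brain metastases. Among α chains ITGA3 was highest, at 297.9 ± 7.23 (n = 3) in the monolayer, but there its range of 290.8 to 305.2 overlapped that of ITGAV at 283.3 to 297.5. Human reads of tumour-free brain gave an estimate of false human signal from mouse RNA. ITGA3 and ITGB4 had 6 such reads each over the 8 tumour-free libraries, which at the depth of the metastases predicts 0.144% of the ITGA3 reads and 0.149% of the ITGB4 reads there. ITGA5 had 1 such read, which predicts 0.329% of its reads in the metastases.

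**Figure D1:**
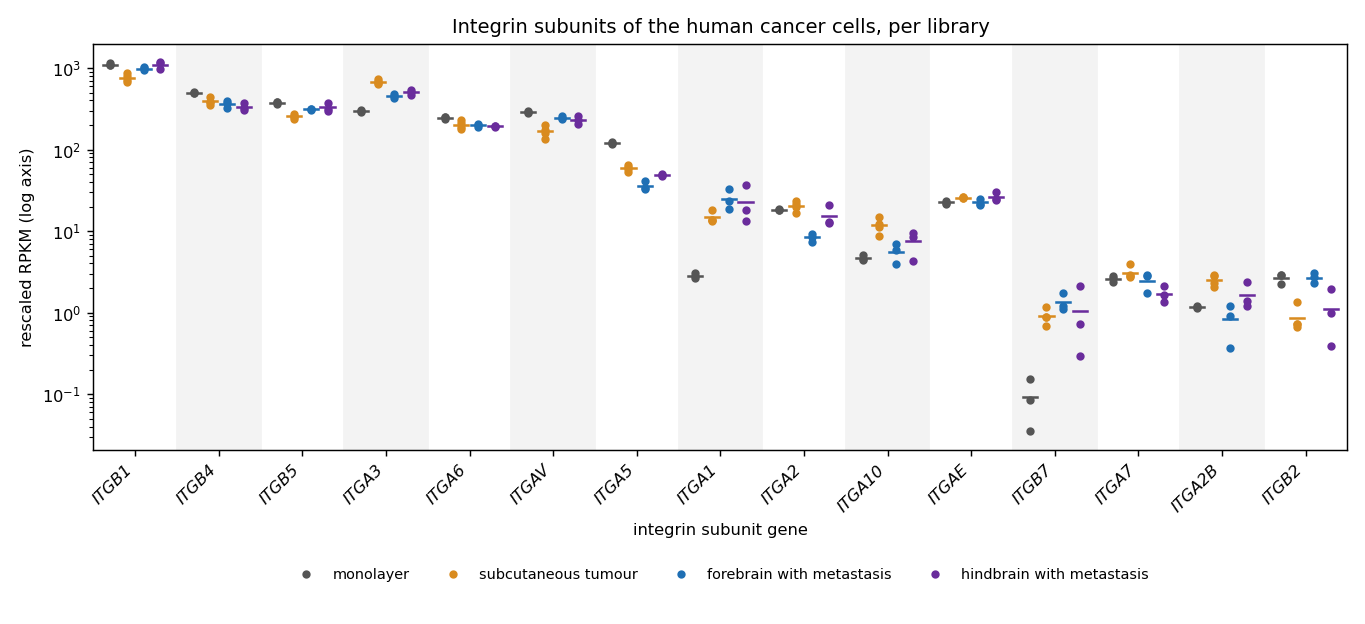
Level of the 15 tested human subunits in each cancer-cell library (dots) with the group mean (bars), on a log axis of rescaled RPKM. ITGA1 in the 3 monolayer libraries lies between 2.66 and 3.03, below every tumour library, and ITGA5 lies between 118.5 and 124.6, above every tumour library.

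Against the monolayer, ITGA1 and ITGA3 rose both under the skin and in the brain, and ITGA5, ITGA6, ITGAV, ITGB4 and ITGB5 fell in both. ITGB7 is also counted among the higher calls of both comparisons below. It reached 1 only in tumour libraries, so its rise is a description. In subcutaneous tumours 5 tested subunits were higher and 7 lower than in the monolayer by limma at an adjusted p under 0.05, against 21.5% of all 14557 tested genes higher and 30.9% lower (52.4% in all). The libraries of 13 subunits did not overlap, against 67.8% of genes. In brain metastases 3 were higher and 6 lower, against 21.9% and 21% of all genes (42.9% in all), and 7 did not overlap, against 38.6%. These shares of all genes are large, so a call alone does not set integrins apart. The median log2 change over the 15 subunits was 0.134 in subcutaneous tumours and -0.229 in brain metastases, beside -0.054 and 0.007 over all tested genes. Both comparisons share the 3 monolayer libraries.

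**Figure D2:**
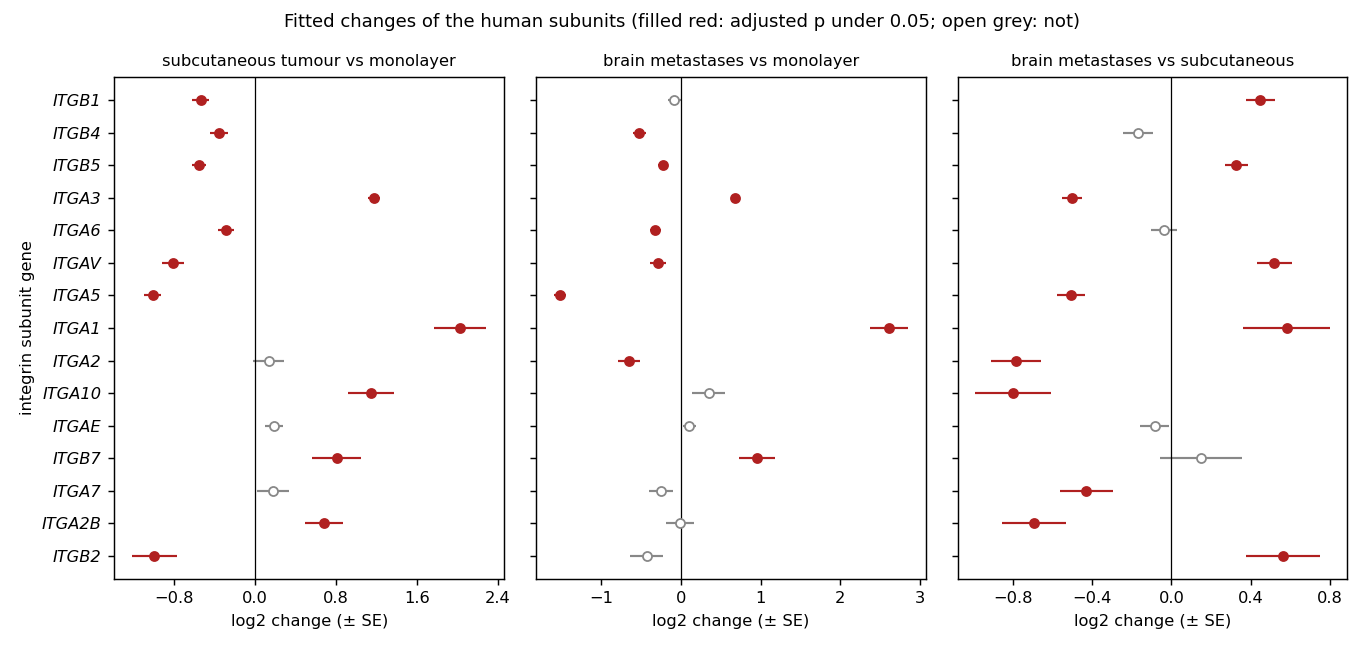
Fitted log2 change (dots) with its standard error (bars) of the 15 tested human subunits in 3 comparisons, each panel on its own axis. ITGA1 has the largest rise against the monolayer (2.03 subcutaneously, 2.61 in brain) and ITGA5 the largest fall among subunits with a mean of at least 5 (-1.01 and -1.52).

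Collagen-binding chains behaved unlike one another. ITGA1 stood at 2.66, 2.82 and 3.03 in the monolayer, at 13.4, 13.8, 13.8 and 17.99 in subcutaneous tumours, and between 13.3 and 36.6 with a median of 21.1 in the 6 brain metastases. Every tumour library was thus at least 4 times above every monolayer library. The fitted rise was 4.08-fold subcutaneously (log2 2.03 ± 0.26 SE, limma adjusted p = 1.93e-05) and 6.11-fold in brain (log2 2.61 ± 0.24, limma adjusted p = 1.504e-06). Brain and subcutaneous tumours overlapped in ITGA1, and their 1.496-fold difference (limma adjusted p = 0.0394) lost its call with median-of-ratios scaling (0.0756) and without subcutaneous replicate 1, 2 or 4 or forebrain metastasis replicate 2 or 3 (0.0604 to 0.0912). The ITGA1 gene lies at chr5:52787916-52959209 on the plus strand (GRCh38, GENCODE 44) and encloses PELO on the same strand, whose exons overlap its own. Whether reads there were assigned to 1 gene or both is not given in the sources used here. The part of shared reads in the ITGA1 rise was not tested. PELO itself was not called in any of the 3 comparisons. Its means were 14.5 ± 0.115 in the monolayer, 13 ± 1.28 subcutaneously, 13.3 ± 1.16 in forebrain and 15.1 ± 2.00 in hindbrain metastases.

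ITGA2 was lower in brain than in both other conditions, and ITGA10 was higher under the skin than in both. ITGA2, whose gene is the next integrin along on chromosome 5, stood at 17.99, 18.1 and 18.4 in the monolayer and 16.6, 19.6, 21.5 and 23.1 in subcutaneous tumours. It reached only 7.34, 8.55 and 9.14 in forebrain metastases, and 12.5, 12.98 and 20.6 in hindbrain metastases. Forebrain metastases were therefore below every other cancer-cell library. Brain metastases were 1.72-fold below subcutaneous tumours (limma adjusted p = 1.51e-04) and 1.57-fold below the monolayer (limma adjusted p = 0.00169), with hindbrain replicate 1 above the lowest libraries of both. ITGA10 went the other way under the skin, from 4.48, 4.55 and 5.01 in the monolayer to 8.70, 11.3, 12.2 and 14.9 in subcutaneous tumours (2.22-fold, limma adjusted p = 6.40e-04), with no overlap. In brain it ranged from 3.93 to 9.50 with a median of 6.37, overlapped both other groups, and was 1.74-fold below subcutaneous tumours (limma adjusted p = 0.00297). Its brain values rest on 51 to 195 reads per library.

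The fibronectin receptor chain ITGA5 had the largest fall from the monolayer among subunits with a mean of at least 5. It stood at 118.5, 118.6 and 124.6 in the monolayer, at 53.4, 57.4, 61.9 and 65.3 in subcutaneous tumours, at 32.5, 33.4 and 41.6 in forebrain metastases and at 46.9, 48.3 and 49.5 in hindbrain metastases. The 4 groups did not overlap. ITGA5 was 2.02-fold lower subcutaneously (limma adjusted p = 3.68e-07) and 2.86-fold lower in brain (limma adjusted p = 3.59e-09) than in the monolayer, and 1.42-fold lower in brain than subcutaneously (limma adjusted p = 5.52e-05).

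The promoter windows of ITGA1 and ITGA5 are shown because these genes had the largest rise and fall from monolayer to brain among subunits with a mean of at least 5. Each runs from 250 bases before to 50 bases after the start of the canonical GENCODE 44 transcript, read from hg38, and capitals mark matches on either strand to TGANTCA (bound by AP-1), CATTCC (TEAD), ACGTG (hypoxia-inducible factors) or GGGCGG (SP1). The ITGA1 window is chr5:52787666-52787965 on the plus strand and the ITGA5 window is chr12:54419217-54419516 on the minus strand.
ITGA1: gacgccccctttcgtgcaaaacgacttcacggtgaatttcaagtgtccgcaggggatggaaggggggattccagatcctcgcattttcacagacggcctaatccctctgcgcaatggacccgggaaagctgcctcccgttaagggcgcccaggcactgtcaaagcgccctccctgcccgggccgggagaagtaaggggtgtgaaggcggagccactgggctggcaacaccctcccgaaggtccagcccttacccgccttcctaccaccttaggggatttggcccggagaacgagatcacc
ITGA5: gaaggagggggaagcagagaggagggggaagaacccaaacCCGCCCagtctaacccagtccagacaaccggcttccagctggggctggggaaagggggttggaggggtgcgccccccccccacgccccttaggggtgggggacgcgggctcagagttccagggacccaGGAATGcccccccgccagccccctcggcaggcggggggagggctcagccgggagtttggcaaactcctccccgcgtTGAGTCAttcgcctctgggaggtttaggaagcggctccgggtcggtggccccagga
The ITGA1 window held none of the 4 motifs, and no match says only that these letters are not in this window. The ITGA5 window held 1 match to the AP-1 motif, 1 to the TEAD motif and 1 to the SP1 motif, which do not overlap. Of 20033 protein-coding promoters of the same length, 5.44% held the AP-1 motif, 11.3% the TEAD motif, 23.3% the hypoxia motif and 61.3% the SP1 motif. A match is a description of the sequence, and no binding was measured here.

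Laminin-binding chains were split. ITGA3, which pairs with β1, stood at 290.8, 297.8 and 305.2 in the monolayer, at 639.5, 646.3, 685.9 and 735.9 in subcutaneous tumours, and between 430.2 and 530 with a median of 474.5 in brain metastases. The 3 conditions did not overlap, with the brain in the middle. The rise over the monolayer was 2.27-fold subcutaneously (limma adjusted p = 3.13e-09) and 1.60-fold in brain (limma adjusted p = 3.83e-07), and brain was 1.42-fold below subcutaneous (limma adjusted p = 2.46e-06). ITGA6, which pairs with β4 or β1, went down slightly instead, from 234.0 to 251.1 in the monolayer to 177.8 to 229.9 subcutaneously and 187.2 to 207.1 in brain. Its fall was 1.22-fold (limma adjusted p = 0.00564) and 1.25-fold (limma adjusted p = 0.00193), and the 2 kinds of tumour did not differ by the test (limma adjusted p = 0.652). The ratio of ITGA3 to ITGA6 within a library, which no scaling of the library can move, was 1.22 ± 0.0765 in the monolayer, 3.39 ± 0.389 subcutaneously and 2.45 ± 0.209 in brain. ITGB4, the β chain of hemidesmosomes, averaged 496.6 ± 4.35 (n = 3) in the monolayer and stood at 348.6, 378.0, 388.1 and 446.0 subcutaneously and 302.5 to 394.3 in brain. It was lower in both tumours (1.28-fold, limma adjusted p = 0.00362, and 1.44-fold, limma adjusted p = 1.37e-04), and brain against subcutaneous was not called (1.12-fold lower, limma adjusted p = 0.0722) but was with median-of-ratios scaling (0.0135).

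ITGAV, ITGB1 and ITGB5, which can pair as αVβ1 and αVβ5, were higher in brain than under the skin. ITGAV stood at 283.3, 290.7 and 297.5 in the monolayer, fell to 134.1, 159.9, 175.2 and 198.1 in subcutaneous tumours, and lay between 204.4 and 255.5 with a median of 241.7 in brain metastases. All 6 metastases were above all 4 subcutaneous tumours and below the monolayer. ITGB1 and ITGB5 followed the same order of means. ITGB1 was 1076, 1090 and 1142 in the monolayer, 679.0, 707.4, 786.9 and 880.3 subcutaneously, and 940.1 to 1171 with a median of 1009 in brain. ITGB5 was 366.4, 378.8 and 379.9 in the monolayer, 235.1, 249.4, 261.3 and 274.5 subcutaneously, and 301.0 to 369.4 with a median of 316.8 in brain. In both genes the metastases overlapped the monolayer but no subcutaneous tumour. Brain exceeded subcutaneous 1.43-fold for ITGAV (limma adjusted p = 2.33e-04), 1.37-fold for ITGB1 (limma adjusted p = 1.69e-04) and 1.26-fold for ITGB5 (limma adjusted p = 3.44e-04). Subcutaneous fell below the monolayer 1.75-fold, 1.45-fold and 1.47-fold in the same order (limma adjusted p = 1.76e-05, 1.34e-04 and 1.19e-05). Against the monolayer the metastases were 1.22-fold lower for ITGAV (limma adjusted p = 0.0259) and 1.17-fold lower for ITGB5 (limma adjusted p = 0.00993), while ITGB1 was not called (limma adjusted p = 0.412). The ITGAV call was lost without any 1 of the monolayer libraries (limma adjusted p = 0.0578 to 0.0878).

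Between brain metastases and subcutaneous tumours 5 subunits were higher and 6 lower, against 31.2% of all tested genes higher and 18.8% lower (50% in all). With median-of-ratios scaling all-gene calls went from 4537 higher and 2739 lower to 3550 and 3618, and the subunits to 4 higher and 7 lower. For 5 subunits (ITGA3, ITGA5, ITGAV, ITGB1 and ITGB5) the libraries of the 2 sites did not overlap, against 31.7% of all genes. Calls with overlap were ITGA1, ITGA2 and ITGA10, given above, and 3 low genes. ITGA2B, the platelet chain, averaged 1.24 in brain and 2.51 subcutaneously (limma adjusted p = 0.00269), ITGA7, a laminin-binding chain of muscle, averaged 2.08 and 3.10 (limma adjusted p = 0.0166), and ITGB2 averaged 1.90 and 0.859 (limma adjusted p = 0.0211). In the monolayer ITGA2B averaged 1.17 and ITGB2 2.68, so under the skin the first was higher (limma adjusted p = 0.00817) and the second lower (limma adjusted p = 0.00164). The ITGA7 and ITGB2 calls did not survive the replicate number as a block (limma adjusted p = 0.102 and 0.0614), and nor did ITGA1 (0.129). ITGAE, the αE chain, ranged from 20.6 to 30.2 over all cancer-cell libraries and was not called, although subcutaneous tumours did not overlap the monolayer (limma adjusted p = 0.0850) and limma-voom called them higher (0.0169). ITGB7 stood at 0.0909 ± 0.0588 in the monolayer and passed the filter only through the tumours (0.913 ± 0.205 subcutaneously, 1.197 ± 0.659 in brain), so its rise is a description. Some subunits, ITGA7, ITGB2, ITGAE and ITGB7 among them, share exon positions with a gene on the opposite strand. BLOC1S1, opposite ITGA7, averaged 14.3 in the monolayer and 16.9 subcutaneously, and ZNF740, opposite ITGB7, 75.8 and 68.1. The use of strand in counting is not given, and the part of such reads was not tested.

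Few integrin differences were called between forebrain and hindbrain metastases. ITGA2 (8.34 ± 0.918 against 15.4 ± 4.56, n = 3 each) and ITGA5 (35.8 ± 5.01 against 48.2 ± 1.29, n = 3 each) were lower in the forebrain, with libraries that did not overlap. Of the 15 tested subunits these 2 were called, both lower, against 3.3% of all genes called (1.85% higher and 1.45% lower), and 4 did not overlap, against 15.6% of genes. The changes were 1.72-fold (limma adjusted p = 0.0197) and 1.35-fold (limma adjusted p = 0.0240). Both calls were lost with limma-voom on recovered reads (0.134 and 0.252), in a fit of only the 2 groups (0.172 and 0.201) and without forebrain replicate 2 (0.0626 and 0.0711). The ITGA5 call was also lost without forebrain or hindbrain replicate 1 (0.0638 and 0.0577). The low gene ITGB2 went the other way, at 2.69 ± 0.359 in forebrain and 1.11 ± 0.785 in hindbrain metastases, on 24 and 12 reads. It averaged 2.68 in the monolayer and 0.859 subcutaneously. This regional difference was not called (limma adjusted p = 0.0599) but was without hindbrain replicate 2 (0.0142). The ratio of ITGAV to ITGA5 was 6.93 ± 0.706 in forebrain and 4.77 ± 0.474 in hindbrain metastases, 2.81 ± 0.459 in subcutaneous tumours and 2.41 ± 0.123 in the monolayer.

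**Figure D3:**
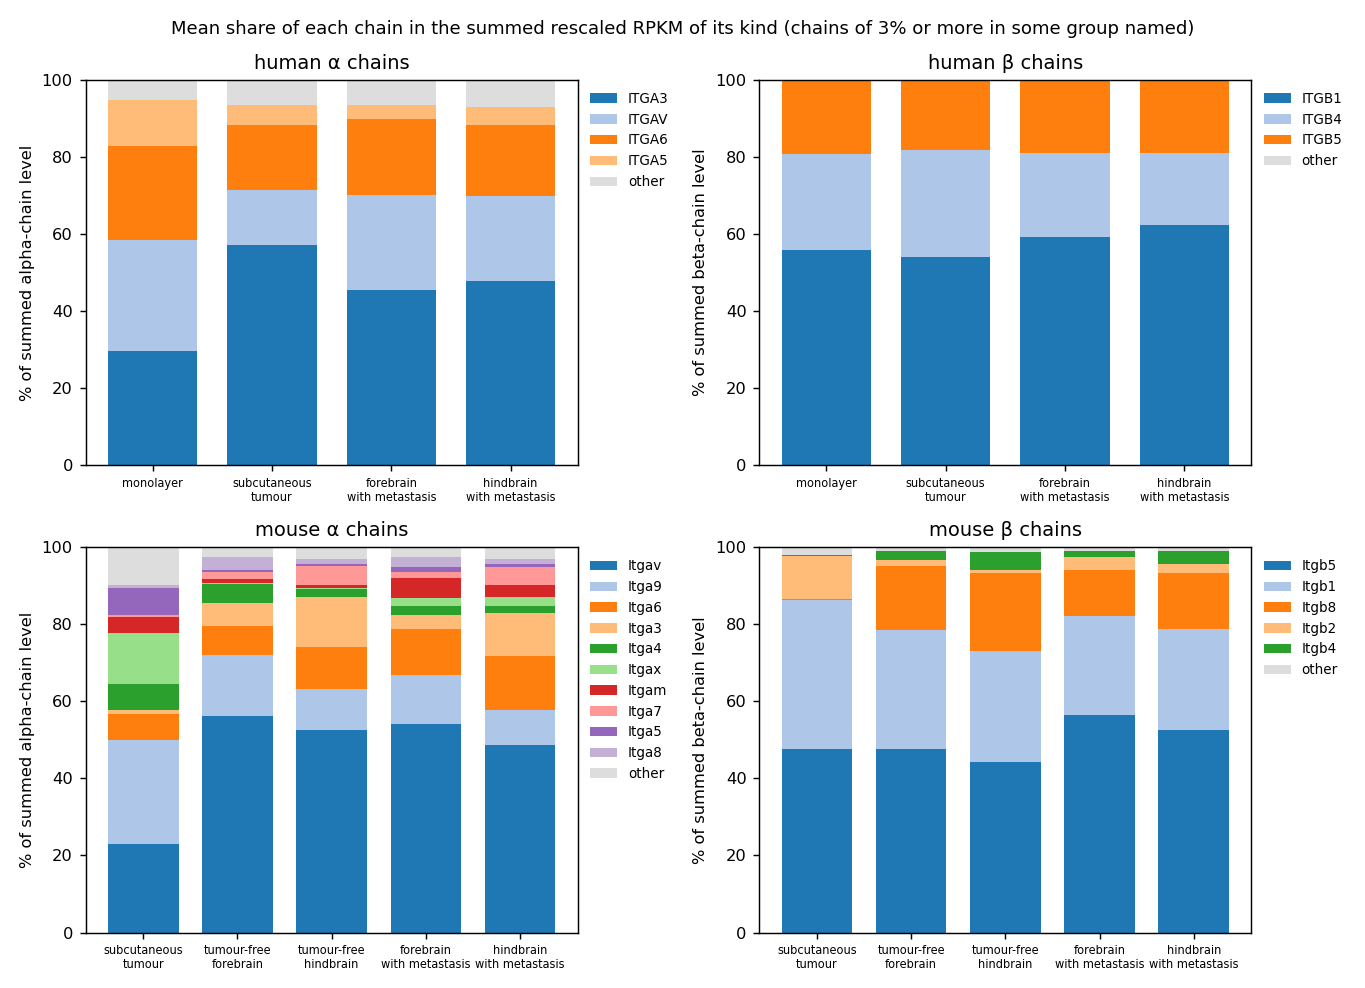
Mean share of each α or β chain in the summed level of all chains of its kind, for human cancer cells (upper panels) and mouse host tissue (lower panels), in percent. In the upper left panel ITGA3 grows from 29.6% in the monolayer to 57.2% in subcutaneous tumours, and in the lower right panel Itgb5 grows from 47.7% to 56.5% in the forebrain.

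Summed over the family, the α chains of the cancer cells came to 1006 ± 6.25 in the monolayer, 1184 ± 54.4 in subcutaneous tumours and 1024 ± 48.9 in brain metastases, and the β chains to 1977 ± 26.1, 1411 ± 108 and 1713 ± 128. ITGA3 made up 29.6% ± 0.879 of the α sum in the monolayer, 57.2% ± 2.64 subcutaneously and 46.7% ± 1.91 in brain. ITGAV went from 28.9% ± 0.567 to 14.1% ± 2.44 and 23.3% ± 2.11, and ITGA5 from 11.98% ± 0.423 to 5.02% ± 0.241 and 4.09% ± 0.603. ITGB1, ITGB4 and ITGB5 held nearly all of the β sum in every group, and ITGB5 kept 18.1% to 19.0% of it. These are shares of RNA, and which chains paired on the cell surface was not measured.

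Ligands of these receptors were read from fixed lists. In a list of 25 RGD and other matrix ligands, 15 were tested in the cancer cells, of which 10 rose and 4 fell from monolayer to brain, against 21.9% and 21% of all genes. LTBP1, which holds latent TGFβ in the matrix, rose from 19.6 ± 0.513 to 179.6 ± 50.7 in brain but stood at 19.1 ± 1.94 under the skin. THBS1, the matrix protein thrombospondin, went from 1104 ± 31.9 in the monolayer to 24.9 ± 4.88 subcutaneously (43.2-fold, limma adjusted p = 6.65e-12) and 654.7 ± 134 in brain. VTN, the αVβ5 ligand vitronectin, was highest under the skin, at 33.3 ± 6.55 against 1.197 ± 0.233 in the monolayer and 9.55 ± 3.69 in brain. POSTN, the αV ligand periostin, was highest in forebrain metastases, at 19.4 ± 5.24 against 3.44 ± 0.566 in hindbrain (limma adjusted p = 2.19e-05). The median log2 change of the list was 0.586 from monolayer to brain, and of the 10 tested laminins and basement membrane ligands it was 0.152, beside 0.007 for all genes.

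Under the skin 8 of the 10 tested basement membrane genes rose over the monolayer and 1 fell (LAMC1), against 21.5% and 30.9% of all genes. LAMB3, a laminin β chain of epithelia, rose from 8.58 ± 0.294 to 21.8 ± 1.74, LAMB2 from 277.3 ± 4.77 to 544.5 ± 46.2 and LAMA3 from 24.3 ± 0.112 to 47.9 ± 6.11. In brain LAMB3 stood at 9.98 ± 2.10 and LAMB2 at 318 ± 50.1, both lower than under the skin (limma adjusted p = 5.94e-06 and 6.90e-07).

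Inside the cell, 30 of 35 listed adaptors and activators were tested. From monolayer to subcutaneous tumour 6 rose and 16 fell, against 21.5% and 30.9% of all genes, and from monolayer to brain 10 rose and 11 fell, against 21.9% and 21%. ACTN1, an actin cross-linker of adhesion sites, fell from 971.2 ± 19.6 to 333.3 ± 14.6 under the skin and 507.6 ± 15.7 in brain. PXN, the scaffold paxillin, fell from 264.7 ± 5.30 to 153.6 ± 8.48 and 157.4 ± 13.4. TNS4, a tensin that binds β chain tails, rose in brain to 37.4 ± 5.05 against 6.84 ± 0.217 in the monolayer and 4.36 ± 0.549 under the skin, and FERMT1, the epithelial kindlin, to 83.1 ± 16.5 against 33.3 ± 0.538 in the monolayer. Brain against subcutaneous gave 21 higher and 5 lower, against 31.2% and 18.8% of all genes.

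Of 11 tested counter-receptors on cell surfaces, 3 rose and 4 fell from monolayer to brain, against 21.9% and 21% of all genes. CDH1, E-cadherin and the ligand of αEβ7, rose from 0.901 ± 0.0865 in the monolayer to 12.7 ± 3.94 under the skin and 67.6 ± 5.81 in brain, while ITGAE was not called. L1CAM, an adhesion molecule that also binds RGD integrins, rose from 31.1 ± 0.262 to 69.1 ± 7.97 in brain.

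On the host side, tumour in the brain came with higher levels of the leukocyte integrin chains Itgam, Itgb2 and Itgax. Of the 27 mouse rows, 19 were tested in brain. Itga2, Itga10, Itga11, Itgad, Itgae, Itgal, Itgb6 and the second Itgam row did not reach 1 in 3 brain libraries. In forebrain 9 of the 19 were higher with tumour and 2 lower, against 14.4% of all 15777 tested genes higher and 16% lower (30.4% in all), and 11 did not overlap, against 37.9%. In hindbrain 6 were called, each higher with tumour, against 3.25% of all genes (2.92% higher and 0.33% lower), and 7 did not overlap, against 12.8%. The median log2 change was 0.307 in forebrain and 0.109 in hindbrain, beside -0.028 and -0.014 over all genes. These counts and medians include Itgax, which reached 1 only in tumour-bearing brain libraries, so its part in them is a description.

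**Figure D4:**
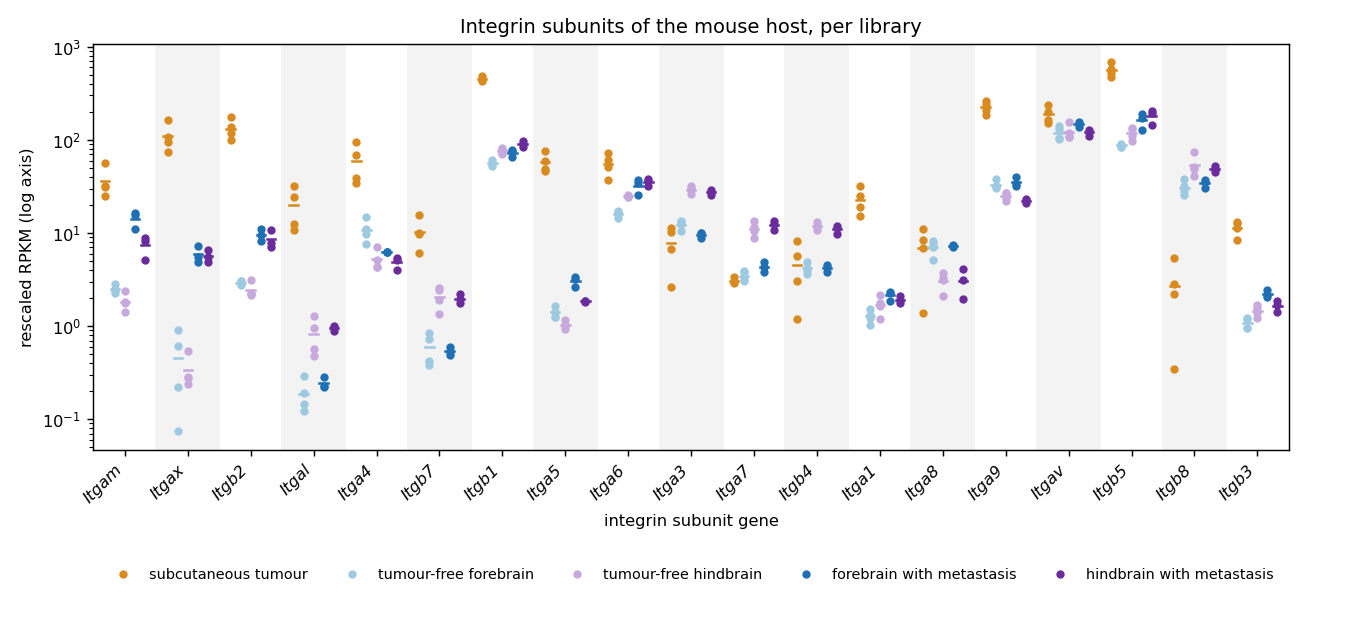
Level of 19 mouse subunits in each library with host tissue (dots) with the group mean (bars), on a log axis of rescaled RPKM. Itgal is shown although it was not tested in brain, and Itga2b, which was tested, is not shown. Itgam, Itgax and Itgb2 are higher in all tumour-bearing brain libraries (5.08 to 16.4, 4.86 to 7.32 and 7.01 to 11.1) than in any tumour-free one, and highest in subcutaneous tumours.

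Itgam encodes the αM chain, a marker of microglia and other myeloid cells. It stood at 2.25, 2.36, 2.53 and 2.87 in tumour-free forebrain and at 10.9, 15.6 and 16.4 with tumour. In hindbrain it stood at 1.402, 1.78, 1.81 and 2.36 without and 5.08, 8.17 and 8.84 with tumour. The groups did not overlap in either region. The fitted rise was 4.33-fold in forebrain (log2 2.11 ± 0.17 SE, limma adjusted p = 2.95e-06) and 2.91-fold in hindbrain (log2 1.54 ± 0.17, limma adjusted p = 8.03e-05). Its β partner Itgb2 rose from 2.76 to 3.03 up to 8.13, 9.57 and 11.1 in forebrain (2.68-fold, limma adjusted p = 9.60e-06) and from 2.13 to 3.10 up to 7.01, 7.89 and 10.7 in hindbrain (2.75-fold, limma adjusted p = 1.63e-05). Itgax, the αX chain of dendritic cells and activated microglia, was at 0.0742 to 0.913 in every tumour-free library and at 4.86 to 7.32 in every tumour-bearing one. It passed the filter only through the tumour-bearing groups, so its fitted 4.82-fold and 4.96-fold rises are a description. Within the tumour-bearing brain the ratio of Itgax to Itgam was 0.420 ± 0.0963 in forebrain and 0.791 ± 0.166 in hindbrain.

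Microglia markers moved with these chains. In forebrain 8 of 8 were called higher, against 14.4% of all genes, and in hindbrain 5 of 8, against 2.92%. Of the tested border and infiltrating macrophage markers 0 of 5 were called higher in forebrain and 1 of 5 in hindbrain. Of the tested neutrophil markers 0 of 4 were called in either region. The 8 microglia markers, all above 1 in every brain library, summed to 234.3 to 265.8 in tumour-free forebrain and 440.4 to 558.4 with tumour, and to 155.7 to 186.8 and 270 to 352.1 in hindbrain. The 8 markers of border and infiltrating macrophages, of which only 2 were above 1 in every tumour-free library, summed to 8.33 to 12.2 and 11.2 to 14.9 in forebrain and to 11 to 25.5 and 20.5 to 27.4 in hindbrain. The 8 neutrophil markers summed to 2.23 to 8.11 and 3.51 to 11.1 in forebrain and to 5.07 to 24.7 and 7.23 to 37.7 in hindbrain, so tumour-bearing and tumour-free libraries overlapped in both regions. In forebrain the highest microglia sum (558.4, against 555.8 in replicate 2) and the highest Itgam and Itgb2 values were in replicate 1. In hindbrain the highest microglia sum and Itgb2 value were in replicate 1, but the highest Itgam value was in replicate 2. The part of these markers in the integrin result was not tested, and in bulk tissue more cells of a type and more RNA per cell cannot be told apart.

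Matrix-binding chains rose as well. Itga6, the laminin-binding chain of vessel and glial cells, went from 14.5, 16.1, 16.7 and 17.2 to 25.6, 34.6 and 36.9 in forebrain (1.93-fold, limma adjusted p = 3.50e-05) and from 24.2, 24.4, 24.7 and 25.3 to 31.7, 35.9 and 38.0 in hindbrain (1.41-fold, limma adjusted p = 0.0157). Itgb5, the β chain of a vitronectin receptor, went from 84.5, 84.8, 89.0 and 90.3 to 128.1, 171.5 and 189.9 in forebrain (1.84-fold, limma adjusted p = 7.16e-04) and from 97.0, 111.0, 130.3 and 132.7 to 146.1, 192.9 and 206.7 in hindbrain (1.54-fold, limma adjusted p = 0.0259). Replicate 3 was the lowest tumour-bearing library for both genes in both regions. The marker sums of microglia (440.4 in forebrain and 270 in hindbrain) and of astrocytes (16679 and 11903) were also lowest in replicate 3. The part of these cells in the Itga6 and Itgb5 changes was not tested. Itga5 averaged 1.404 ± 0.181 and 3.09 ± 0.377 in forebrain (limma adjusted p = 1.06e-04) and 1.03 ± 0.0918 and 1.85 ± 0.0175 in hindbrain (limma adjusted p = 0.00942). Some of these hindbrain calls did not hold in every alternative. With all 18 mouse libraries in the fit, Itga5, Itga6 and Itgb5 lost theirs (limma adjusted p = 0.106, 0.266 and 0.0522), as they did without hindbrain metastasis replicate 2 (0.0551, 0.0886 and 0.159), which left 3 of 6 calls each time. Itga6 and Itgb5 also lost theirs without hindbrain metastasis replicate 1 (0.0976 and 0.144), and Itgb5 without tumour-free hindbrain replicate 3 or 4 (0.0783 and 0.0741).

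In forebrain 5 further subunits were called. Itgb1 rose from 52.0, 55.5, 56.7 and 60.8 to 65.8, 75.4 and 78.6 (1.30-fold, limma adjusted p = 0.00364). The low genes Itgb3 (1.08 ± 0.139 to 2.22 ± 0.215, limma adjusted p = 8.96e-04) and Itga1 (1.28 ± 0.210 to 2.16 ± 0.273, limma adjusted p = 0.0128) rose too. Itga4, the lymphocyte and monocyte chain, fell from 7.53, 9.64, 11.2 and 14.7 to 6.19, 6.24 and 6.29 (1.58-fold, limma adjusted p = 0.0140), and Itga3 fell from 10.48, 12.4, 13.01 and 13.4 to 8.82, 9.91 and 10.1 (1.25-fold, limma adjusted p = 0.0162). No groups overlapped in these 5 genes. Without forebrain metastasis replicate 2 the calls of Itga1, Itga3 and Itga4 were lost (limma adjusted p = 0.0672, 0.0919 and 0.0529), and that of Itga1 also without replicate 1 (0.0504). With all 18 mouse libraries in the fit the same 3 genes lost their calls (limma adjusted p = 0.120, 0.528 and 0.149), which left 8 forebrain calls, all higher. Itgav, the αV chain, was not called in either region (147.6 ± 9.01 against 120.1 ± 19.6 in forebrain, limma adjusted p = 0.0979), and neither was Itgb8 (34.3 ± 3.46 against 30.8 ± 5.46, limma adjusted p = 0.500).

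Other markers moved in the forebrain. Astrocyte markers, 8 of 8 above 1 in every brain library, summed to 10762 to 12702 without and 16679 to 21457 with tumour, against 10835 to 13044 and 11903 to 13012 in hindbrain. Endothelial markers summed to 85.6 to 108.2 and 115.1 to 175.8 in forebrain, and pericyte and smooth muscle markers to 68.1 to 75.7 and 85.4 to 125.7. Choroid plexus markers summed to 262.8 to 882.9 in tumour-free forebrain, and to 25.5 and 32.9 in 2 tumour-bearing forebrain libraries and 1219 in the third. The part of these cells in the Itga6, Itgb5 and Itgb1 changes was not tested.

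**Figure D5:**
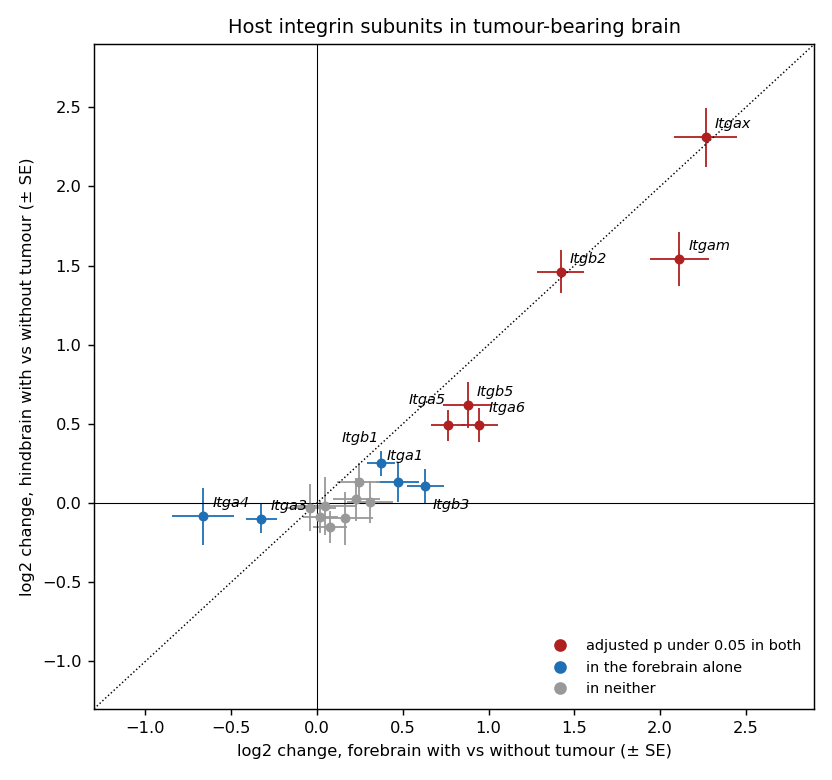
Fitted log2 change with tumour in forebrain (horizontal) against hindbrain (vertical) for the 19 tested mouse subunits, with standard errors and the line of equal change. Itgax and Itgb2 lie on the line at about 2.27 and 2.31, and 1.42 and 1.46, while Itgb3 and Itga6 lie to its right.

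Whether the tumour effect differed between regions was tested as an interaction. By limma 0 of 19 subunits were called, against 0.456% of all genes (0.254% higher and 0.203% lower), and limma-voom on recovered reads also called 0. Before adjustment 4 subunits had a p under 0.05. The lowest adjusted p was 0.102, for Itgb3 (log2 0.63 in forebrain and 0.11 in hindbrain). Without forebrain metastasis replicate 3, Itga6 was called (limma adjusted p = 0.0281). The calls made in forebrain alone are therefore not shown to be particular to it.

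Itgb5 took a larger mean share of the host β chains with tumour, given here without a test. In forebrain Itgb5 made up 47.7% ± 2.92 of the β sum without and 56.5% ± 2.78 with tumour, and in hindbrain 44.4% ± 5.60 and 52.5% ± 3.29. The ratio of Itgb5 to Itgb1 went from 1.56 ± 0.148 to 2.22 ± 0.287 in forebrain and from 1.56 ± 0.222 to 2.01 ± 0.282 in hindbrain. Itgb8 went the other way, from 16.8% ± 2.33 to 11.99% ± 0.640 and from 20.3% ± 5.45 to 14.3% ± 1.03. Itgav stayed the main α chain, at 48.7% to 56.3% of the α sum in the 4 brain groups.

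Ligands and adaptors on the host side were read from the same lists. In forebrain 9 of 16 basement membrane genes rose with tumour, against 14.4% of all genes, with a list median log2 change of 0.381, against 0.022 in hindbrain. Lamc1, the γ chain of most laminins, rose in forebrain from 49.7 ± 2.91 to 78.4 ± 13.98 (limma adjusted p = 0.00172), while in hindbrain it stood at 73.2 ± 8.66 and 77.96 ± 9.83 and the difference between regions was not called (limma adjusted p = 0.114). So did Lama4, of vessel walls, from 4.00 ± 0.309 to 6.89 ± 0.774 (limma adjusted p = 0.00169). Of 20 tested RGD and other matrix ligands 8 rose and 1 fell in forebrain, against 14.4% and 16% of all genes. In hindbrain 2 of them rose and 0 fell, against 2.92% and 0.33%. Tgfb1, whose latent form binds αVβ8 and αVβ6, rose from 11.8 ± 1.29 to 28.6 ± 5.58 in forebrain (limma adjusted p = 1.91e-05) and from 10.9 ± 1.21 to 23.7 ± 2.68 in hindbrain (limma adjusted p = 1.24e-04). Fn1, fibronectin, rose in forebrain, from 21.3 ± 3.88 to 45.8 ± 11.4 (limma adjusted p = 0.0119), and its difference between regions was not called (0.203). Of 33 tested adaptors 14 rose in forebrain and 4 in hindbrain, against 14.4% and 2.92% of all genes. Apbb1ip, the RIAM adaptor of leukocytes, rose from 3.32 ± 0.513 to 10.7 ± 1.34 and from 2.48 ± 0.350 to 6.61 ± 1.09, and Fermt3, the leukocyte kindlin, from 2.12 ± 0.180 to 6.71 ± 1.64 in forebrain.

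Tumour-free forebrain and hindbrain differed in their integrins before any tumour. In forebrain 4 of the 19 subunits were higher and 9 lower than in hindbrain, against 20.2% of all genes higher and 32.5% lower (52.8% in all), and 13 did not overlap, against 44.8%. The 9 include Itgb7, which passed the filter only through hindbrain libraries. Median-of-ratios scaling moved the all-gene split from 3194 higher and 5133 lower to 4221 and 4037, with the subunits at 4 and 8. Laminin-binding chains led the hindbrain side. Itga7 stood at 3.07, 3.20, 3.82 and 3.89 in forebrain and 8.90, 10.48, 11.7 and 13.4 in hindbrain (2.68-fold, limma adjusted p = 1.29e-07). Itgb4 stood at 3.66, 3.96, 4.20 and 4.93 against 10.7, 11.5, 11.8 and 13.2 (2.47-fold, limma adjusted p = 3.98e-08), and Itga3 at 10.48, 12.4, 13.01 and 13.4 against 26.2, 28.7, 30.5 and 31.9 (2.28-fold, limma adjusted p = 3.41e-08). No library of 1 region reached the other in these 3 genes. Itgb8 (25.5, 28.0, 31.6 and 38.1 against 40.6, 48.7, 51.5 and 73.8) and Itga6 (1.501-fold, limma adjusted p = 1.56e-04), Itgb1 (1.34-fold, 2.05e-04) and Itgb5 (1.34-fold, 0.0155) were also higher in hindbrain.

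On the forebrain side stood Itga8 and Itga4. Itga8, an RGD-binding chain, was 5.16, 6.998, 7.90 and 8.26 in forebrain and 2.12, 3.11, 3.28 and 3.76 in hindbrain (1.99-fold, limma adjusted p = 1.95e-04). Itga4 was 7.53 to 14.7 against 4.33 to 7.09 (1.87-fold, limma adjusted p = 3.89e-04), and Itga9, a tenascin-binding chain, 30.3, 31.9, 32.3 and 38.0 against 21.9, 23.8, 26.6 and 26.9 (1.32-fold, limma adjusted p = 0.00186). None of these overlapped. Of the low genes, Itgb7 averaged 0.591 in forebrain and 2.07 in hindbrain and passed the filter only through hindbrain libraries, so its difference is a description, while the small differences of Itga5 (1.404 and 1.03) and Itgb3 (1.08 and 1.47) lost their calls under several alternatives, with limma adjusted p = 0.0580 and 0.0564 under the replicate block. Oligodendrocyte markers summed to 3347 to 4287 in forebrain and 7317 to 10064 in hindbrain, and Schwann cell markers, several of which other glia share, to 1056 to 1325 and 2251 to 3683. Their part in the regional differences was not tested.

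Stroma of subcutaneous tumours had far more integrin RNA than tumour-bearing brain. The mouse α sum was 830.9 ± 129 (n = 4) against 260.3 ± 16.8 (n = 6), and the β sum 1182 ± 117 against 316 ± 48.9. Of 23 tested subunits 4 were higher and 18 lower in brain, against 49.1% and 34.1% of all 17249 genes (83.2% in all), and for 18 of them the libraries did not overlap, against 65% of genes. The lower ones include Itgal, Itga11, Itga2 and Itgae, which passed the filter mainly through the subcutaneous group. The median log2 change was -2.072 beside 0.279 over all genes, a value that quantile normalization moved to 0.006. Fibroblast markers summed to 36833 to 75431 subcutaneously and 134.8 to 235.2 in tumour-bearing brain, and macrophage markers to 2375 to 3986 and 11.2 to 27.4, so whole tissues were compared. The part of each cell type was not tested.

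Itga5 led the stromal side, at 46.9, 49.3, 59.0 and 75.8 subcutaneously and 1.83 to 3.37 with a median of 2.26 in brain (16.9-fold, limma adjusted p = 1.29e-15). Itgax was 74.0, 95.1, 107.6 and 164.0 against a brain median of 5.49 (15.9-fold, limma adjusted p = 2.58e-12), and Itgb2 was 99.0, 117.7, 138.6 and 175.1 against 8.85 (13.1-fold, limma adjusted p = 9.61e-14). Itga4 (34.1 to 94.4 against 4.01 to 6.29), Itga9 (185.6 to 259.9 against 20.9 to 39.9), Itga1 (15.3 to 31.6 against 1.77 to 2.35) and Itgb1 (425.8 to 481.0 against 65.8 to 97.1) were 8.57-fold, 7.75-fold, 7.55-fold and 5.54-fold higher in stroma. Itgam, Itgb5 and Itgb3 were 3.17-fold, 3.27-fold and 4.21-fold higher in stroma without overlap, and Itga6 and Itgav 1.59-fold and 1.39-fold higher with overlap. Itga2b, of platelets, averaged 24.0 ± 12.7 against 3.39 ± 0.365 and Itgb7 10.4 ± 3.84 against 1.25 ± 0.797. The stroma value of Itga2b was highest in replicate 3, at 42.8 against 14.7 to 19.7 in the others, the library rich in haemoglobin. Mast cell and platelet markers summed to their lowest stroma value in that library, at 656.9 against 678.6 to 1021. The cause of the high Itga2b value was not tested. Itgal (20.0 ± 10.1 against 0.598 ± 0.390), Itga11, Itga2 and Itgae passed the filter mainly through the subcutaneous group, so their differences are a description.

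Only 4 subunits were higher in brain. Itgb8 stood at 0.348, 2.22, 2.85 and 5.33 in stroma and 30.4 to 52.6 with a median of 41.2 in brain (13.1-fold, limma adjusted p = 4.32e-09). Itga7 stood at 2.87 to 3.40 and 3.86 to 13.4 (2.05-fold, limma adjusted p = 8.55e-08), without overlap. Itga3 (2.65, 6.74, 10.2 and 11.3 against 8.82 to 28.7, 2.19-fold, limma adjusted p = 2.81e-04) and Itgb4 (1.201, 3.03, 5.73 and 8.18 against 3.83 to 11.9, 1.64-fold, limma adjusted p = 0.0197) overlapped. By region, Itgb4 averaged 4.25 in forebrain and 11.05 in hindbrain with tumour against 4.53 in stroma, so by means only hindbrain was higher. Itga3 averaged 9.62 and 27.25 against 7.73, and its forebrain values all lay within the stroma range. Replicate 3, which lacked the keratinocyte markers and was rich in haemoglobin, was the lowest stroma library for Itga3 and Itgb4. It was also the lowest for Itgb8, and the cause was not tested. Without replicate 3 the Itgb4 call was lost (limma adjusted p = 0.0879), as it was without replicate 2 (0.0605), and Itga8 was called lower in brain (0.00102).

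Cancer cells and host tissue of the same 6 tumour-bearing brain libraries can be set side by side. The α3, αV and α6 chains had the highest levels in the cancer cells, and Itgav had the highest in the host, at 134.1 ± 16.9. ITGB4 stood at 347.2 ± 36.3 in the cancer cells and Itgb4 at 7.65 ± 3.79 in the host, while Itgb8 stood at 41.6 ± 8.67 in the host and ITGB8 under 1 in the cancer cells. Levels of the 2 species are shares of separate totals, so these pairs are set side by side without a test.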

How the data were processed

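RNA of 21 libraries was sequenced, and the authors deposited 1 human and 1 mouse table of RPKM values (reads per kilobase of gene and per 1000000 reads). The builds hg38 (GRCh38) and mm10 (GRCm38) are named per the submitters' processing notes. For the aligner, the counter, its use of strand and the handling of reads matching both species, details were not given in the sources used here. Low values were whole multiples of the value of 1 read for 100% of genes above 0 in both tables (within 0.02 of a whole number), so reads per gene and depth were recovered from the deposited RPKM values.

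RPKM were rescaled to a sum of 1000000 per library and species. Genes of at least 1 in at least 3 libraries were tested with limma 3.58.1 (trend, robust, statmod 1.5.0, R 4.3.3) on log2(value + 1), with 1 fit over 13 cancer-cell libraries, 1 over 14 brain libraries and, for subcutaneous stroma, 1 over 18 mouse libraries. Benjamini-Hochberg adjustment ran over all tested genes and subunits were called below an adjusted p of 0.05. Fold changes are on the log2(value + 1) scale, which understates those of low genes. SDs are over libraries. The fits were tested on simulated data. Tables and figures were made with Python 3.11.15, pandas 2.3.3 and matplotlib 3.10.9.

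Called subunits with a mean of at least 5 were given by library, at most 12 per comparison, and lower ones by their means; of each other list, the 3 strongest calls in each direction could be named, and those printed were picked from them after their values were seen. One gene of the ligand lists is not reported here. The members and lists were chosen with earlier results of these data known. Same-numbered forebrain and hindbrain metastasis libraries deviated together on the mouse side (r = 0.238, 0.383 and 0.437, over genes). Same-numbered tumour-free libraries gave r = 0.186, 0.226, -0.0577 and 0.365. What a shared number stands for is not stated, and the main fits did not use it. Alternatives covered scaling, pseudocount, filters, the replicate number as a block, the libraries of the fit, limma-voom on recovered reads, removal of the human signal predicted from mouse RNA, metastases averaged by number, and leaving out each library.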

Additional observations from a re-analysis of the deposited data

Results flagged for a closer look

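Of 72 groups of 4 libraries examined, 3 had a library far from the others by Dixon's criterion, which chance does in about 1 of 20 groups. ITGA1 in subcutaneous replicate 3 was 17.99, against 13.4 to 13.8 in the others. ITGA7 in subcutaneous replicate 4 was 3.939, and without that library the difference of ITGA7 between brain and subcutaneous tumours lost its call (limma adjusted p = 0.0759). Itgb2 in tumour-free hindbrain replicate 2 was 3.099, against 2.13 to 2.28 in the others.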

How the results depend on the processing

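Of 86 called subunit results, 68 kept their call and sign in every alternative in which the gene was tested, and 0 turned sign. An alternative whose filter removed the gene was not counted. The 68 include genes that passed the filter only or mainly through their higher group, such as ITGB7, Itgax and Itgal. Their part in this count is a description. The fragile comparison was forebrain against hindbrain metastasis, where 2 called subunits became 0 with no filter, with only the groups compared and with limma-voom, and 0 to 3 when a library was left out (0 without forebrain replicate 2, 1 without replicate 1 of either region). In hindbrain with against without tumour 6 became 3 with all 18 mouse libraries, and 3 to 6 when a library was left out. The regional difference of the tumour effect went from 0 to 1 without forebrain metastasis replicate 3 and was 0 to 1 over left-out libraries. Leaving out a library gave 8 to 12 in brain against subcutaneous tumours, 8 to 10 in brain against monolayer, 12 in subcutaneous against monolayer, 8 to 12 in forebrain with tumour, 11 to 13 in tumour-free forebrain against hindbrain and 21 to 22 in brain against stroma. The causes were not tested.

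With the replicate block the called subunits numbered 8 in brain against subcutaneous, 9 in brain against monolayer, 12 in subcutaneous against monolayer, 2 between metastases, 11 in forebrain and 6 in hindbrain with tumour, 0 for the regional difference, 11 in tumour-free brain and 22 against stroma. Human metastasis libraries of the same number barely deviated together (r = 0.0441 to 0.0662), and what a shared number stands for is not stated.

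All-gene calls moved by over 1.5 times for forebrain against hindbrain metastasis (481, against 204 with no filter, 295 with the block, 39 with only the groups compared, 100 with limma-voom and 297 to 735 over left-out libraries), for forebrain with tumour (4793, against 1798 with all 18 libraries and 2353 without metastasis replicate 2), for hindbrain with tumour (512, against 294 with a filter of 5, 303 with all 18 libraries and 291 to 804 over left-out libraries) and for the regional difference (72, against 129 with quantile normalization, 30 with no filter, 173 with limma-voom and 12 with all 18 libraries, and 12 without hindbrain metastasis replicate 1 to 343 without tumour-free hindbrain replicate 1). Higher and lower calls between metastases went from 270 and 211 to 216 and 255 with median-of-ratios scaling, and in brain against stroma from 8469 and 5890 to 7137 and 7193 with quantile normalization. Among cancer-cell libraries the metastases held the fewest human reads, which limits the low human subunits.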

Other observations

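Other host lists differed between tumour-free regions and between sites. Of 33 tested adaptors 7 were higher and 16 lower in tumour-free forebrain than in hindbrain, against 20.2% and 32.5% of all genes, and of 35 tested in tumour-bearing brain against subcutaneous stroma 5 were higher and 23 lower, against 49.1% and 34.1% of all genes. Fermt3, the leukocyte kindlin, stood at 5.84 ± 1.47 (n = 6) in tumour-bearing brain and 67.1 ± 9.77 (n = 4) in stroma. Fn1, fibronectin, stood at 49.4 ± 10.9 and 2210 ± 346.9 in the same groups. Lamc1, a laminin γ chain, was lower in tumour-free forebrain (49.7 ± 2.91, n = 4) than in hindbrain (73.2 ± 8.66, n = 4).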
